A study of Homo sapiens with 12 samples.

Results

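Acute phase proteins are plasma proteins that hepatocytes make in different amounts during inflammation. Described here are 10 of their genes, out of 15822 loci in the deposited expression table, across 6 groups of HepaRG cells: CRP, SAA1, ORM1, ORM2, HP, LBP, FGA, FGB, FGG and C3. They were chosen by name, with earlier results of these data known, as hepatocyte proteins of inflammation that include C-reactive protein. Each had exactly 1 row. HepaRG is a line from a human liver tumour that differentiates in culture into cells like hepatocytes and cells like bile duct epithelium. RNA was sequenced from hCAR-KO cells (KO), in which the constitutive androstane receptor, a nuclear receptor that switches on drug-metabolizing genes, was knocked out, and from wild-type (WT) cells. The groups were KO treated with phenobarbital (PB), KO treated with CITCO, KO given DMSO, and WT with PB, with CITCO and with DMSO, 2 libraries each. PB is a barbiturate that activates the receptor without binding it directly, and CITCO is a synthetic agonist that binds the human receptor. Doses, exposure times, how the receptor gene was disrupted and whether the KO line is 1 clone are not stated in the labels. Nothing in the labels says that the duplicates were separate cultures, so p-values may reflect technical spread alone.

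In the liver, the acute phase response is started by cytokines. Interleukin-6 binds its receptor and the shared subunit gp130 (IL6ST), JAK kinases then phosphorylate STAT3, and STAT3 enters the nucleus. Interleukin-1 acts through NF-kB and C/EBP factors, and liver factors such as HNF4A keep many of these genes active at rest. CRP, a pentraxin that binds phosphocholine on damaged cells and bacteria, and SAA1, an apolipoprotein of high-density lipoprotein, are the classic strong responders. Fibrinogen, haptoglobin, orosomucoid and C3 are already abundant at rest and are known for smaller changes.

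Values are counts per 1e6 reads (CPM) of a library size that the authors had already normalized. The libraries held 49258123 to 66453415 counted reads, and their CPM sum to 0.900 to 0.935 times 1e6 in KO and 1.07 to 1.11 times 1e6 in WT. The 10 genes summed to 4.81 to 5.10% of the KO libraries and 3.69 to 3.98% of the WT libraries. RNA of the targeted gene NR1I3 was at 10.8 CPM in KO DMSO and 11.7 CPM in WT DMSO, so gene-level RNA does not check the genotype labels. CYP2B6, the classic target of the receptor, averaged 227.9 CPM with PB, 16.8 CPM with CITCO and 9.59 CPM with DMSO in KO cells, and 445 CPM with PB, 429.5 CPM with CITCO and 36.1 CPM with DMSO in WT cells. Hepatocyte markers summed to 6.04 to 6.29% of KO libraries and 12.8 to 14.1% of WT libraries. Most of each sum was ALB (43520 CPM in KO DMSO and 127568 CPM in WT DMSO). Under DMSO, 6 of the 7 analysed markers were lower in KO and 0 were higher (limma, adjusted p under 0.05). Of all loci, 29.4% were lower and 28.3% higher in that comparison. Biliary markers (4 analysed) summed to 104 to 121 CPM in KO and 377 to 467 CPM in WT, most of it KRT19 (83.9 CPM in KO DMSO and 407 CPM in WT DMSO); KRT19 and SOX9 were lower in KO under DMSO, and SPP1 and KRT7 higher. Summed mesenchymal markers (5) stood at 225 to 248 CPM in KO and 113 to 121 CPM in WT, and endothelial markers (2) at 63.4 to 89.9 CPM in KO and 81.8 to 114.0 CPM in WT. Under DMSO, 3 of the 5 mesenchymal markers were higher in KO and 1 lower, with log2 differences from -0.41 to 1.95. Of the 2 endothelial markers, 1 was lower and 0 were higher. Of 8 leukocyte markers, CD14 alone was analysed, at 6.05 to 18.8 CPM in KO and 3.70 to 7.84 CPM in WT. The part of these markers in the results that follow was not tested, and in bulk RNA fewer cells of a type and less RNA per cell cannot be told apart.

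CRP differed most between the genotypes. It was high in all KO libraries and low in all WT libraries, whatever the treatment. CRP read 1225 and 1231 CPM in KO PB, 1171 and 1184 CPM in KO CITCO and 1118 and 1094 CPM in KO DMSO. The WT libraries read 14.9 and 14.7 CPM with PB, 18.9 and 18.4 CPM with CITCO and 19.7 and 18.2 CPM with DMSO. The lowest KO library thus lay far above the highest WT library, and the duplicates of any group differed by at most 1.08 times. WT values rested on 822 to 1110 reads, so CRP was clearly detected in WT cells. From highest to lowest the groups ran KO PB, KO CITCO, KO DMSO, WT DMSO, WT CITCO and WT PB. WT CITCO lay within the range of WT DMSO, and none of the other neighbours in that order overlapped, although KO CITCO was not called against KO DMSO (limma, adjusted p = 0.455).

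Under DMSO the mean was 58.4 times higher in KO cells (1106 ± 17.0 CPM) than in WT cells (18.9 ± 1.02 CPM; SD, n = 2 each). The log2 scale used for all tests adds 0.5 CPM to each value and so understates fold changes of genes at low levels. On it, the difference was 5.83 (95% interval 5.74 to 5.92; limma, adjusted p = 1.16e-23). It was 6.33 under PB, a ratio of means of 83.0, and 5.94 under CITCO, a ratio of 63.2. Ranked from the highest log2 difference downward among 15792 tested loci, CRP stood 6th under DMSO and 4th under both PB and CITCO. CRP took 0.121 to 0.132% of KO libraries and 0.00133 to 0.00179% of WT libraries. Without CRP, the other 9 members still summed to 4.68 to 4.97% of KO libraries and 3.69 to 3.98% of WT libraries. Among the members higher in KO under DMSO, the next log2 difference after that of CRP was 0.61, for FGG.

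The letters just before the CRP start site are shown because CRP carries the largest difference; they are the 250 bases before the start in RefSeq (GRCh38.p14, minus strand, chr1:159714590-159714839), 5′ to 3′, with capitals on the one motif match found.
CRP: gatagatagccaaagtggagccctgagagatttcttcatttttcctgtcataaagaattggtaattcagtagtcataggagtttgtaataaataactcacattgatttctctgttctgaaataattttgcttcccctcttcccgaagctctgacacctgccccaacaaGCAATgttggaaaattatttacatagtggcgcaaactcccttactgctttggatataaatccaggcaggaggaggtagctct
The motifs searched on both strands, whose matches do not overlap here, were GCAAT, part of a C/EBP site; CTGGGAA, the interleukin-6 response element; and TTCNNNGAA, a STAT site. The window held GCAAT at positions -82 to -78 from the start and no exact match to either of the others. Sites with other letters or spacing were not searched. GCAAT occurs in 21.3% of the 35116 RefSeq windows of the same length, CTGGGAA in 9.15% and TTCNNNGAA in 6.57%. A match describes the letters and is no evidence of binding. RefSeq windows matched 5 of the 10 members by symbol.

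SAA1, the other classic strong responder, did not share the CRP pattern. It read 1306 and 1322 CPM in KO PB, 1246 and 1271 CPM in KO CITCO and 1338 and 1337 CPM in KO DMSO. WT cells read 1252 and 1251 CPM with PB, 1314 and 1276 CPM with CITCO and 1379 and 1397 CPM with DMSO. The genotypes overlapped across treatments, and all 12 libraries lay between 1246 and 1397 CPM. The difference of KO from WT was -0.05 under DMSO (95% interval -0.12 to 0.01; limma, adjusted p = 0.131), 0.07 under PB (interval 0.01 to 0.13; adjusted p = 0.0514) and -0.04 under CITCO (interval -0.10 to 0.02; adjusted p = 0.247). Its direction depends on the scaling: scaling each library to its own total, which moves the median of all loci by 0.251, 0.237 and 0.237 under DMSO, PB and CITCO, gave 0.21, 0.32 and 0.21, all called higher. CRP and SAA1, by CPM, stood at a ratio of 0.818 to 0.940 in KO libraries and 0.0117 to 0.0144 in WT libraries. SAA1 shares 54.2% of the 50-base windows of its GENCODE 29 transcript with its close copy SAA2, which was not analysed here, so its reads may include those of SAA2.

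**Figure D1:**
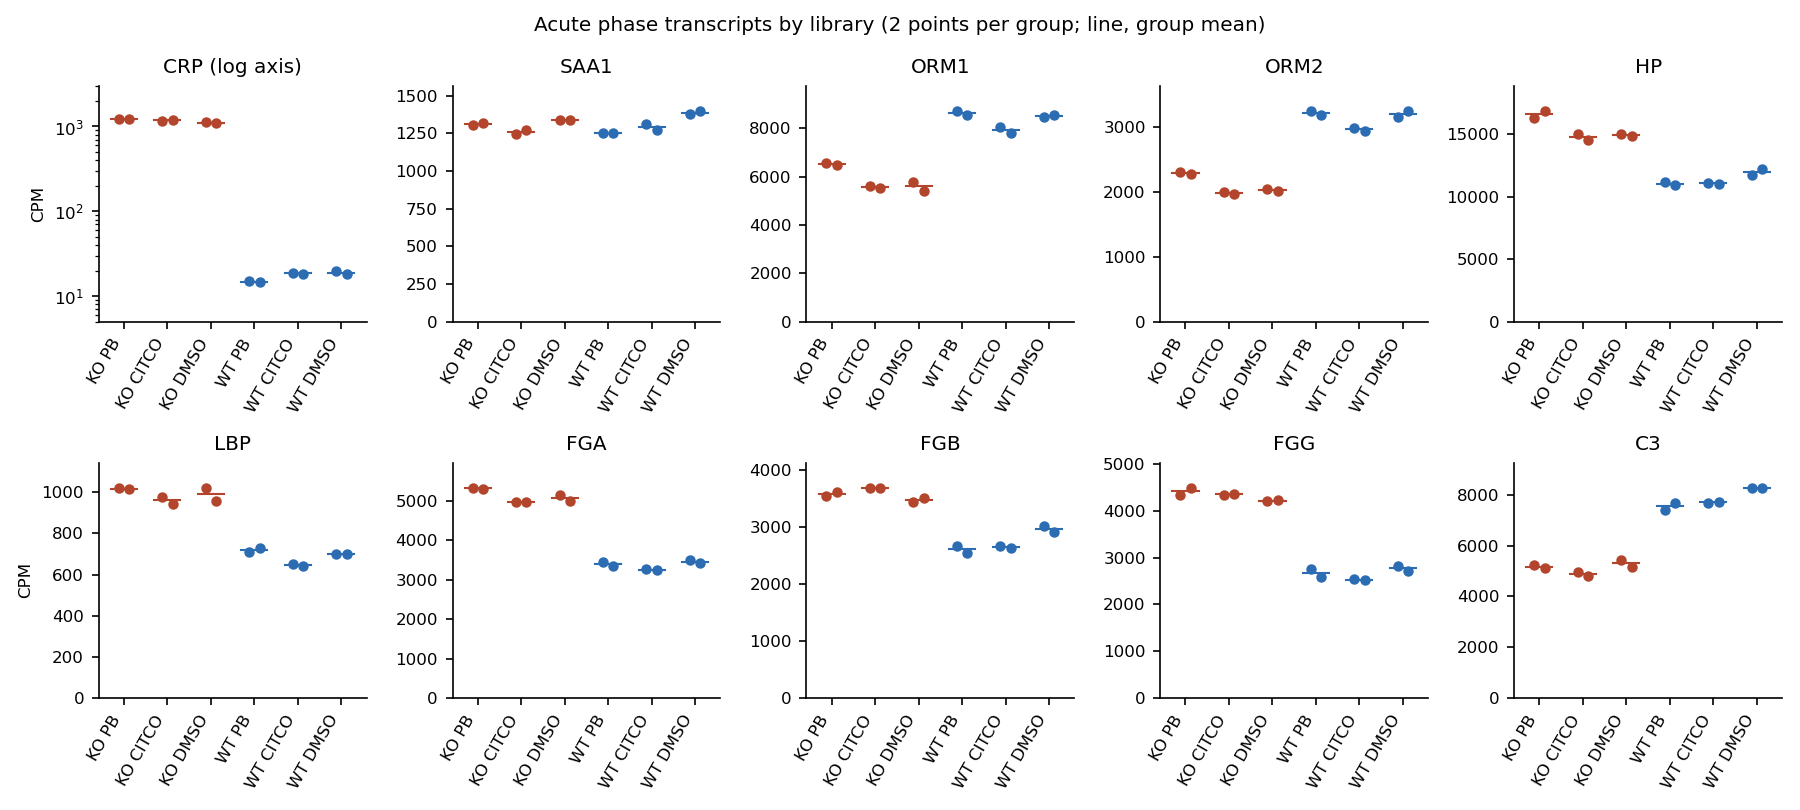
Expression of the 10 genes in each of the 12 libraries, in CPM (vertical axes start at 0, except the log axis of CRP); points are libraries and lines group means, with KO in red and WT in blue. KO CRP lies between 1094 and 1231 CPM and WT CRP between 14.7 and 19.7 CPM, while SAA1 lies between 1246 and 1397 CPM in all 12 libraries.

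The 3 fibrinogen chains, which assemble into the clotting protein, were all higher in KO cells, by smaller amounts than CRP. FGG, the gamma chain, read 4347 and 4493 CPM in KO PB, 4345 and 4366 CPM in KO CITCO and 4219 and 4222 CPM in KO DMSO, against 2751 and 2592 CPM in WT PB, 2539 and 2525 CPM in WT CITCO and 2831 and 2715 CPM in WT DMSO. FGA, the alpha chain, read 5334 and 5306, 4982 and 4969.8, and 5158 and 5004 CPM in KO PB, CITCO and DMSO, against 3455 and 3342, 3264 and 3254, and 3502 and 3422 CPM in WT PB, CITCO and DMSO. FGB, the beta chain, read 3545 and 3614, 3678 and 3688, and 3434 and 3508 CPM in KO PB, CITCO and DMSO, against 2675 and 2550.0, 2661 and 2636, and 3019.6 and 2912 CPM in WT PB, CITCO and DMSO. For each chain every KO library was above every WT library. Under DMSO the ratio of KO to WT means was 1.52 for FGG, 1.47 for FGA and 1.17 for FGB (limma, adjusted p = 2.70e-11, 1.77e-11 and 6.64e-06). On the log2 scale FGG differed by 0.73 under PB and 0.78 under CITCO, FGA by 0.65 and 0.61, and FGB by 0.45 and 0.48.

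The chains did not keep one proportion. FGG to FGB, by CPM, was 1.18 to 1.24 in KO libraries and 0.932 to 1.03 in WT libraries, and FGA to FGB was 1.35 to 1.50 in KO and 1.16 to 1.31 in WT. FGA to FGG was 1.14 to 1.23 in KO and 1.24 to 1.29 in WT, and none of these 3 pairs of ranges overlapped. No 50-base window is shared between any 2 of the 3 chains. The promoters of the chains are shown because the 3 genes stand side by side on chromosome 4 and all were higher in KO; each line gives the 250 bases before the start (RefSeq, GRCh38.p14), 5′ to 3′, with motif matches in capitals. FGA lies on the minus strand at chr4:154590743-154590992, FGB on the plus strand at chr4:154562730-154562979 (the first of its 2 listed windows) and FGG on the minus strand at chr4:154612657-154612906.
FGA: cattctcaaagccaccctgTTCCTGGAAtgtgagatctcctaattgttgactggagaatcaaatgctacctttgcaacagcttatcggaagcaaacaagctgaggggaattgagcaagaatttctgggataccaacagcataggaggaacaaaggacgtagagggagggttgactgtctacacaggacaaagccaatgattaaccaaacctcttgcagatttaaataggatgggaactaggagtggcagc
FGB: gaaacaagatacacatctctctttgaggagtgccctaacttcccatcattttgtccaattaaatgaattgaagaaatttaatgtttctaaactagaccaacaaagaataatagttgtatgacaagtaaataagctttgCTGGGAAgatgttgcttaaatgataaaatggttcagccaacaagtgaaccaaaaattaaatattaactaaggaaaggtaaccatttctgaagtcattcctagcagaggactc
FGG: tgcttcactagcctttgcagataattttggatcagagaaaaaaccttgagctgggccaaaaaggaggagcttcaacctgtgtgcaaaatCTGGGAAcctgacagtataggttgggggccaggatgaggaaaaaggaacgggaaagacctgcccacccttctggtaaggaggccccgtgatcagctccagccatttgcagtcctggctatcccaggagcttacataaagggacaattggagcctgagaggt
FGA held the STAT letters TTCCTGGAA at -231 to -223. FGB held CTGGGAA at -112 to -106. FGG held CTGGGAA at -161 to -155 and none of the other motifs searched. All 3 windows thus hold an exact match to CTGGGAA or TTCNNNGAA, and the CRP window holds no exact match to either. The CRP window does hold ttcccgaa, the TTC and GAA of the STAT motif with a shorter spacer, which the search did not count. The absence of an exact match is thus no absence of a STAT site. The ORM1 window held none of the motifs searched. Nothing follows from this about binding of the factor.

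HP and LBP were also higher in KO cells. HP encodes haptoglobin, which captures free haemoglobin, and was the most abundant of the 10 messages in CPM in every library. It read 16338 and 16854 CPM in KO PB, 15042 and 14584.5 CPM in KO CITCO and 15022 and 14906 CPM in KO DMSO. WT cells read 11195 and 10924 CPM with PB, 11141 and 10996 CPM with CITCO and 11735 and 12206 CPM with DMSO. All KO libraries exceeded all WT libraries, and the log2 difference was 0.32 under DMSO, 0.59 under PB and 0.42 under CITCO (limma, adjusted p = 7.05e-08, 1.60e-11 and 1.88e-09). HP shares 28.6% of its 50-base windows with its copy HPR, and HP to HPR was 9.13 to 9.55 in KO and 9.21 to 11.5 in WT, so some reads of one may be counted to the other.

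LBP carries bacterial lipopolysaccharide to CD14. It read 1020.0 and 1014 CPM in KO PB, 976 and 945 CPM in KO CITCO and 1022 and 959 CPM in KO DMSO, against 711 and 730.3 CPM in WT PB, 653 and 643 CPM in WT CITCO and 699.7 and 702 CPM in WT DMSO. The genotypes did not overlap. The KO mean was 1.41 times that of WT under DMSO, 1.41 times under PB and 1.48 times under CITCO (limma, adjusted p = 8.22e-10, 7.64e-10 and 1.33e-10).

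ORM1, ORM2 and C3 went the other way and were lower in KO cells. ORM1 and ORM2 encode the orosomucoids, drug-binding glycoproteins of plasma. ORM1 read 6580.2 and 6482 CPM in KO PB, 5612 and 5552 CPM in KO CITCO and 5769 and 5428 CPM in KO DMSO, against 8709 and 8547, 8059.8 and 7823, and 8461 and 8564 CPM in WT PB, CITCO and DMSO. ORM2 read 2312 and 2284, 1997 and 1975, and 2048 and 2018 CPM in KO PB, CITCO and DMSO, against 3249 and 3187, 2993 and 2942, and 3167 and 3246 CPM in WT PB, CITCO and DMSO. Neither gene's KO and WT libraries overlapped. Under DMSO, PB and CITCO, ORM1 fell by 0.61, 0.40 and 0.51 on the log2 scale and ORM2 by 0.66, 0.49 and 0.58 (limma, adjusted p = 4.99e-09 or smaller in each). The ratio ORM1 to ORM2 was 2.69 to 2.85 in KO and 2.64 to 2.69 in WT. The pair share 47.4% of the 50-base windows of ORM1, so reads may be split between them and their separate values are uncertain.

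C3, the central component of complement, read 5216 and 5116 CPM in KO PB, 4942 and 4789 CPM in KO CITCO and 5443 and 5145 CPM in KO DMSO. WT cells read 7399 and 7688 CPM with PB, 7686 and 7724 CPM with CITCO and 8245 and 8271 CPM with DMSO. The groups were well apart, and C3 fell by 0.64 under DMSO, 0.55 under PB and 0.66 under CITCO on the log2 scale (limma, adjusted p = 9.12e-12, 8.44e-11 and 5.74e-12).

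Counted together under DMSO, 6 members were higher in KO than in WT, 3 were lower and SAA1 was not called (limma, adjusted p under 0.05, with no minimum fold). Of all 15792 tested loci, 28.3% were called higher and 29.4% lower in that comparison, 57.7% in all, so a call by itself sets a member apart little. The same 6 and 3 members were called under PB, where 29.4% of loci were higher and 28.9% lower, and under CITCO, where 29.3% were higher and 29.8% lower. The median log2 difference of the 10 members was 0.27 under DMSO, 0.48 under PB and 0.45 under CITCO, beside medians within 0.01 of 0 over all loci. Scaling to library totals left the direction and the call of these 9 members as they were in all 3 comparisons.

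**Figure D2:**
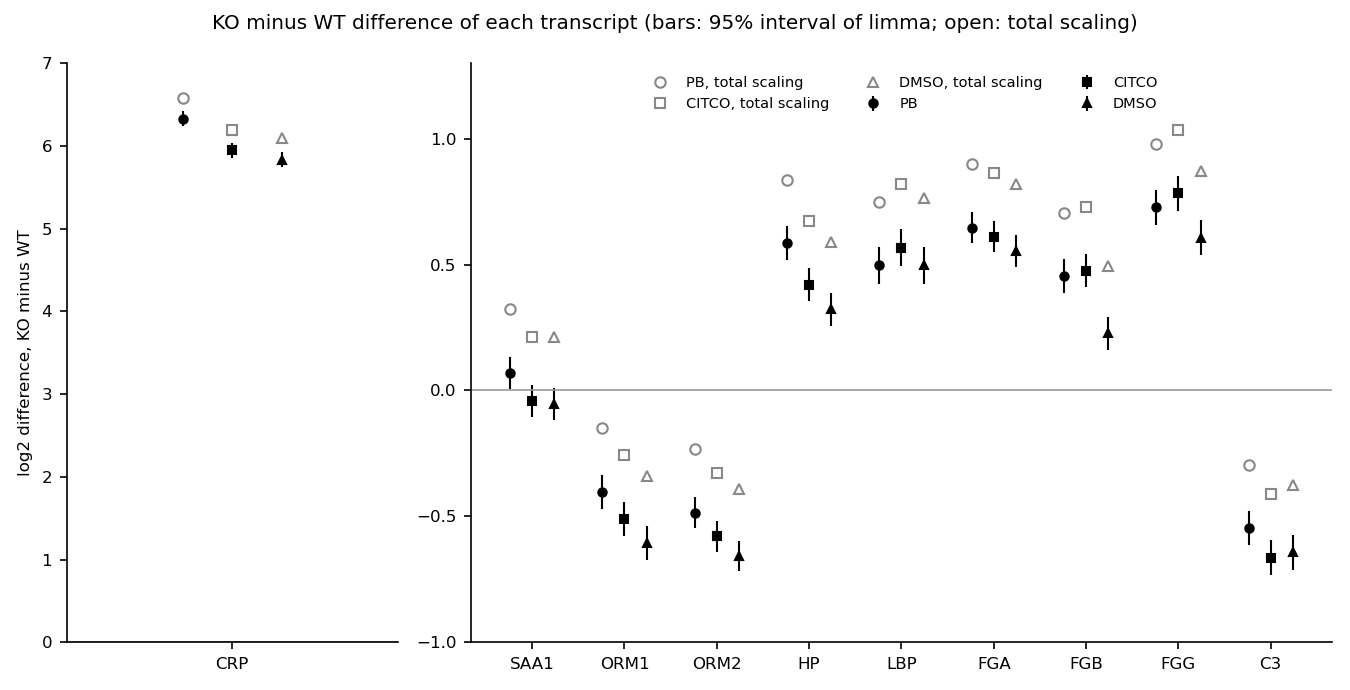
Difference of KO from WT on the log2(CPM + 0.5) scale under PB, CITCO and DMSO, with CRP on its own axis; black marks carry the 95% interval of limma and open marks use scaling to library totals. CRP lies between 5.83 and 6.33, HP, LBP and the fibrinogen chains lie above 0, ORM1, ORM2 and C3 lie below 0, and SAA1 lies between -0.05 and 0.07, or between 0.21 and 0.32 when totals are used.

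Per kilobase of its GENCODE 29 transcript, the order of levels differed between genotypes. In KO DMSO, HP stood first at 10097 CPM per kb, then ORM1 at 6980.3, ORM2 at 2675, FGG at 2398, SAA1 at 1981, FGB at 1757.5 and C3 at 1006 CPM per kb. CRP followed at 549 CPM per kb, just above LBP at 505. In WT DMSO, ORM1 stood first at 10614 CPM per kb and HP second at 8077, and CRP was last at 9.39 CPM per kb, below LBP at 357.5. FGA depends on the transcript taken: it was at 1381.5 or 2260.3 CPM per kb in KO DMSO and 941 or 1540.0 in WT DMSO, for transcripts of 3678 or 2248 bases.

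PB changed the members differently in the 2 genotypes. In KO cells, 4 of 10 were higher with PB than with DMSO and 0 were lower, where 3.87% of all loci were higher and 3.09% lower. ORM1 rose by 0.22 on the log2 scale (95% interval 0.16 to 0.29; limma, adjusted p = 0.000149), ORM2 by 0.18 (adjusted p = 0.000581) and HP by 0.15 (adjusted p = 0.00508). The PB libraries of all 3 lay above both DMSO libraries. CRP rose by 0.15, to 1228 ± 4.46 CPM with PB against 1106 ± 17.0 CPM with DMSO (SD, n = 2 each; adjusted p = 0.0397). That CRP call was lost when any 1 of the 4 libraries was left out (adjusted p 0.119 to 0.249) and with scaling to totals (0.0998), and the HP call without KO PB replicate 2 (adjusted p = 0.12). In the authors' deposited table for this comparison, FDR was 0.00139 for ORM1, 0.00564 for ORM2, 0.0525 for HP and 0.0743 for CRP.

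In WT cells the direction was downward: 5 of 10 were lower with PB and 0 were higher, where 3.76% of loci were lower and 2.66% higher. CRP fell by 0.34 on the log2 scale (95% interval -0.43 to -0.25; limma, adjusted p = 3.74e-05), with both PB libraries below all other WT libraries. FGB fell by 0.18 (adjusted p = 0.00109), SAA1 by 0.15 (0.00384), C3 by 0.13 (0.0199) and HP by 0.11 (0.0341). In a fit of the 4 compared libraries alone, the calls of CRP (adjusted p = 0.1), SAA1 (0.0703), HP (0.106) and C3 (0.0606) were lost, and that of CRP was also lost with edgeR (0.0508). The C3 call was lost without WT PB replicate 1, WT DMSO replicate 1 or WT DMSO replicate 2 (adjusted p = 0.124, 0.0683 and 0.0655), and the HP call without WT PB replicate 2 or WT DMSO replicate 2 (0.156 and 0.203). The authors' deposited table gives FDR of 0.000121 for CRP, 0.0133 for FGB, 0.0299 for SAA1, 0.144 for C3 and 0.198 for HP. ORM1, ORM2, LBP, FGA and FGG had log2 differences between -0.05 and 0.04 and were not called.

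The difference between these responses was tested directly. KO minus WT, the PB response was 0.50 for CRP (95% interval 0.37 to 0.62; limma, adjusted p = 0.000236), 0.26 for HP (adjusted p = 0.00433), 0.23 for FGB (0.0169) and 0.20 for ORM1 (0.0364). In that test 0.798% of all loci were called in the same direction and 0.209% in the other. The other 6 members were not called; ORM2, at 0.17, came nearest (adjusted p = 0.056). The ORM1 call was lost without either KO PB library, KO DMSO replicate 2, WT PB replicate 2 or either WT DMSO library (adjusted p 0.0609 to 0.223). The FGB call was lost without either KO PB library, KO DMSO replicate 1, WT PB replicate 2 or WT DMSO replicate 1 (0.0515 to 0.128), and the HP call without KO PB replicate 2 (0.0528). The CRP call held without any 1 library and was lost with a constant prior variance in place of the trend (adjusted p = 0.0575).

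Fewer members were called with CITCO. In KO cells, limma called 0 of 10 with CITCO against DMSO, where 0.811% of all loci were called (0.386% higher and 0.424% lower). An unadjusted p under 0.05 was found for 3 members (SAA1 -0.09, C3 -0.12 and FGB 0.09 on the log2 scale) and for 1743 of all 15792 loci. In WT cells, FGB was lower by 0.16 (limma, adjusted p = 0.008) and FGG by 0.13 (adjusted p = 0.0468), 2 of 10, where 1.02% of loci were lower and 1.18% higher. All 10 WT values were below 0, between -0.16 and -0.02. Of all 15792 loci, 2578 had an unadjusted p under 0.05 in WT, and so did 9 of these 10. CRP was the exception, at -0.02 (95% interval -0.11 to 0.07; adjusted p = 0.845). Both calls were lost without WT CITCO replicate 1, WT CITCO replicate 2 or WT DMSO replicate 1 (adjusted p 0.087 to 0.351), and in the authors' deposited table FDR was 0.0637 for FGB and 0.211 for FGG. The CITCO response differed between KO and WT for FGB, by 0.25 (limma, adjusted p = 0.0141), where 0.108% of loci were called in that direction and 0.228% in the other. That call was lost without either CITCO library of either genotype, KO DMSO replicate 1 or WT DMSO replicate 1 (adjusted p 0.066 to 0.116). 

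**Figure D3:**
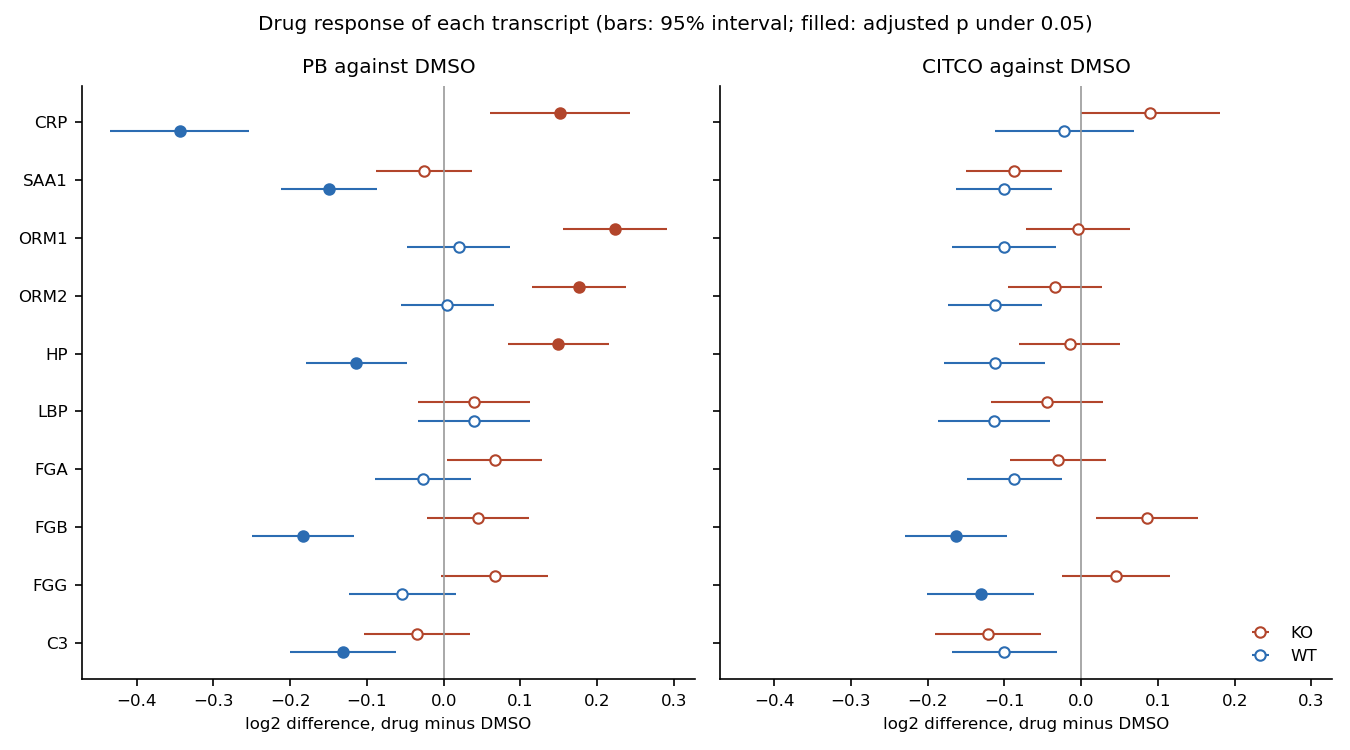
Log2 difference of PB from DMSO (left) and of CITCO from DMSO (right) for the 10 genes, KO in red above WT in blue, with 95% intervals of limma; filled marks have an adjusted p under 0.05. With PB, CRP lies at 0.15 in KO and -0.34 in WT; with CITCO, the 10 WT values lie between -0.16 and -0.02.

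Set against each other in KO cells, PB gave higher ORM1 (0.23), ORM2 (0.21) and HP (0.16) than CITCO, 3 of 10, where 3.57% of loci were higher and 1.91% lower (limma, adjusted p = 0.000154, 0.000109 and 0.00282). The HP call was lost without KO PB replicate 2 or KO CITCO replicate 2 (adjusted p = 0.0858 and 0.0816). In WT cells, CRP was lower with PB than with CITCO by 0.32 (adjusted p = 0.000128), where 3.63% of loci were lower, and the call was lost with edgeR (0.0622). LBP (0.15), ORM1 (0.12) and ORM2 (0.12) were higher, where 2.65% of loci were (limma, adjusted p = 0.0118, 0.0335 and 0.0214). LBP's call was lost without WT PB replicate 2, and those of ORM1 and ORM2 without WT PB replicate 1; all 3 were lost without either WT CITCO library and when scaled to totals (adjusted p 0.0514 to 0.281). Doses and times are not given, so PB and CITCO are not matched. Comparisons with DMSO within a genotype share their DMSO libraries. CD14, the analysed leukocyte marker, was also higher with PB, at 18.8 and 17.6 CPM with PB against 7.23 and 6.13 CPM with DMSO in KO, and at 7.46 and 7.84 CPM with PB against 3.70 and 4.30 CPM with DMSO in WT, and it was higher with CITCO in WT (0.50 on the log2 scale). KDR, an endothelial marker, was lower with PB, at 62.1 CPM against 85.5 CPM with DMSO in KO and 80.9 CPM against 107.5 CPM in WT. SPP1, a biliary marker, was higher with PB in both genotypes (0.29 in KO and 0.73 in WT). With PB in KO the biliary marker KRT19 was lower (-0.36) and the hepatocyte markers APOA1 (0.27) and SERPINA1 (0.27) were higher. The 7 hepatocyte markers lay between -0.07 and 0.27 there, and only these 2 were called. Of 5 mesenchymal markers, 1 was higher with PB in KO and 1 lower with PB in WT. In WT 1 hepatocyte marker was higher with PB and 1 lower with CITCO. With CITCO 1 biliary marker was higher in WT and 1 lower in KO. Of all loci, 3.87% were higher and 3.09% lower with PB in KO, and 2.66% and 3.76% in WT. With CITCO these shares were 0.386% and 0.424% in KO and 1.18% and 1.02% in WT. The part of these markers in the drug responses was not tested.

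Related plasma proteins also differed between KO and WT under DMSO, in both directions. Of 20 other acute phase genes, 14 were tested: 5 were higher in KO and 4 lower, where 28.3% of all loci were higher and 29.4% lower. C9, a pore-forming complement component, averaged 396 CPM in KO and 98.1 CPM in WT (log2 2.01), and CP, the copper oxidase ceruloplasmin, 948 and 341 CPM (1.48). APCS, the pentraxin serum amyloid P and a relative of CRP, averaged 197 and 64.7 CPM (1.60). A2M, a protease inhibitor, was lower at 685 CPM in KO and 2641 CPM in WT (-1.95). The ratio of CRP to APCS was 5.50 to 6.03 in KO libraries and 0.222 to 0.301 in WT libraries. With PB against DMSO, 7 of these 14 were higher and 0 lower in KO cells, and 0 were higher and 2 lower in WT cells; of all loci, 3.87% were higher in KO and 3.76% lower in WT. CP was called in both, at 0.26 in KO and -0.14 in WT.

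Negative acute phase proteins, which fall in inflammation, included 10 tested of 11 listed: 3 were higher in KO and 6 lower under DMSO, beside the same shares of all loci. ALB, albumin, averaged 43520 CPM in KO and 127568 CPM in WT (-1.55), APOA1, the main protein of high-density lipoprotein, 968 and 3347 CPM (-1.79), and SERPINA7, thyroxine-binding globulin, 32.0 and 249.6 CPM (-2.94). Of the 10, 3 are also on the hepatocyte marker list (ALB, APOA1 and TTR). IGF1, the growth factor, went the other way: it averaged 61.5 CPM in KO DMSO, and its WT DMSO libraries held 0 and 1 reads. With PB against DMSO, 4 of these 10 negative acute phase genes were higher in KO cells and 0 lower. In WT cells 2 were higher and 2 lower, where 2.66% of all loci were higher and 3.76% lower. Complement genes other than C3 (11 tested of 12) were 4 higher and 6 lower, 10 of 11 called where 57.7% of all loci were, with MASP2, a protease of the lectin pathway, at 1.48, C8G at 0.96, CFI, the C3b-cleaving protease, at -0.77 and C6 at -1.22. With PB, 6 of these 11 were higher in KO cells and 0 lower (3.87% and 3.09% of all loci), and in WT cells 0 were called by limma. In WT cells 4 of them had an unadjusted p under 0.05, as did 2992 of all 15792 loci.

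Receptors of the cytokines were mostly higher in KO under DMSO: 6 of 7 were called higher and 0 lower, where 28.3% of all loci were higher and 29.4% lower. OSMR, the oncostatin M receptor, averaged 133 CPM in KO and 62.7 CPM in WT (1.08), IL1RAP, a chain of the interleukin-1 receptor, 26.3 and 14.5 CPM (0.84), and TNFRSF1A, a receptor of tumour necrosis factor, 88.6 and 66.3 CPM (0.42). IL6ST stood at 280.2 and 222 CPM (0.33). IL6R, the interleukin-6 receptor itself, was not called, at 96.3 CPM in KO and 99.4 CPM in WT (limma, adjusted p = 0.364). Scaling to library totals moves the median of all loci by 0.251 here, so the direction of so small a difference depends on the scaling. Of 8 ligands, 2 were tested, and both were low. IL6 held 96 and 86 reads in KO DMSO and 4 and 5 reads in WT DMSO (1.40 and 0.0970 CPM; log2 1.66), and LIF averaged 11.4 and 9.62 CPM (0.24). 

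Among 13 signal carriers, 5 were higher in KO and 4 lower under DMSO, 9 called in all, where 57.7% of all loci were. STAT3 averaged 462 ± 8.49 CPM in KO and 232 ± 1.97 CPM in WT (SD, n = 2 each; log2 0.99, adjusted p = 5.60e-14), while the duplicates of CEBPD, a C/EBP factor, lay far apart, at 21.3 and 33.6 CPM in KO and 9.39 and 18.7 CPM in WT (0.98). HNF4A averaged 171 and 313 CPM (-0.87) and CEBPA 18.3 and 40.3 CPM (-1.11). CEBPB was not called, at 53.6 CPM in KO and 42.0 CPM in WT (limma, adjusted p = 0.0833). STAT3 was lower with PB than with DMSO in both genotypes, with log2 differences of -0.13 in KO (limma, adjusted p = 0.0263) and -0.18 in WT (adjusted p = 0.00274). Phosphorylation of STAT3 is not seen in RNA, and its part in the levels of the members was not tested. Inhibitors of the pathway (8 tested) were 4 higher and 2 lower in KO, where 28.3% and 29.4% of all loci were. PIAS3, which binds STAT3, differed by 0.70, SOCS1 by 0.63 and PTPN11 by 0.52. SOCS3, the feedback inhibitor of gp130 signalling, differed by 0.40, and SIGIRR, an inhibitory receptor of the interleukin-1 receptor family, by -0.70. SOCS1 was low, at 48 and 70 reads in KO DMSO and 11 and 27 reads in WT DMSO, so its value also depends on the added 0.5 CPM.

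**Figure D4:**
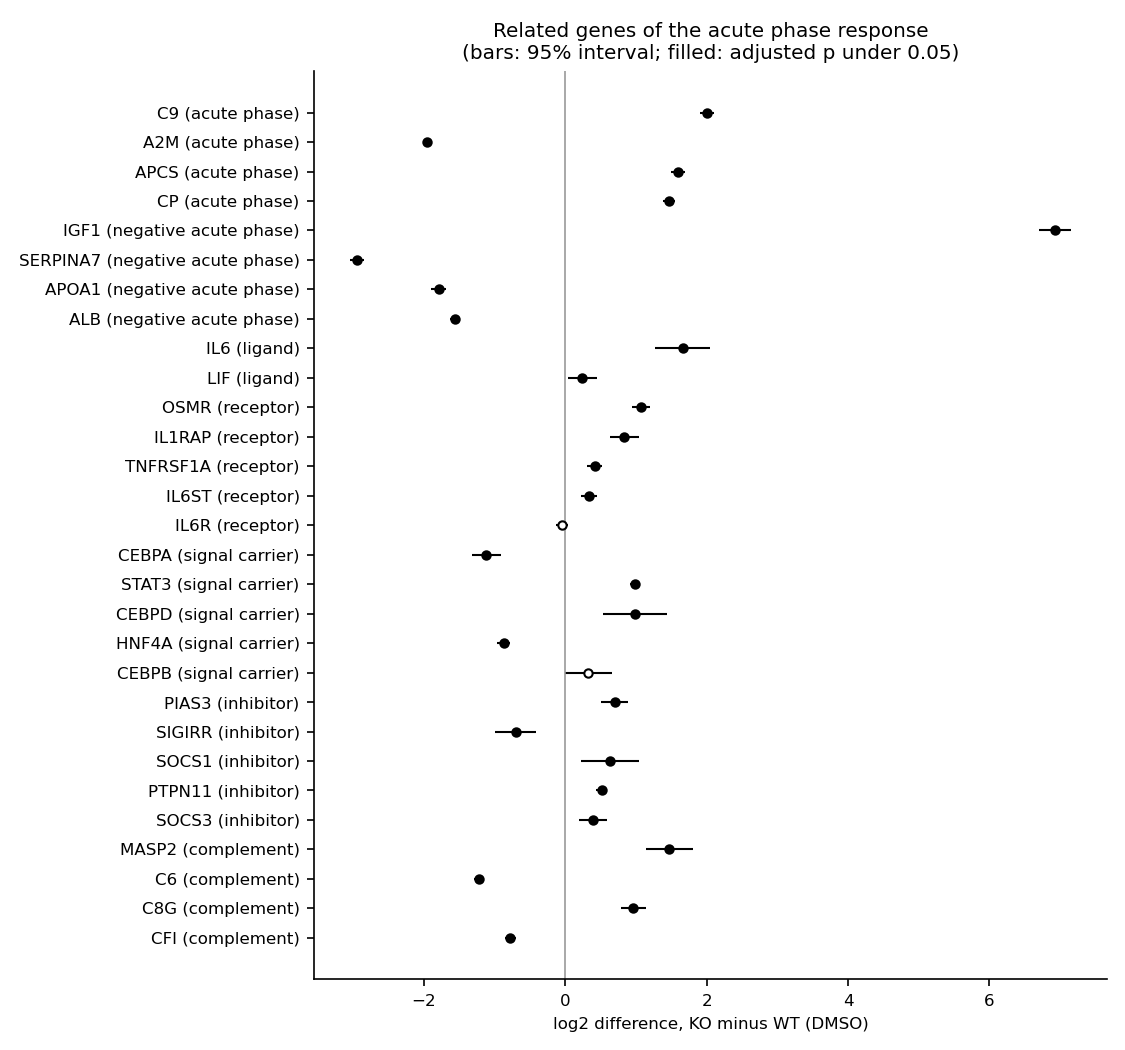
Log2 difference of KO from WT under DMSO for related genes of the acute phase response, with 95% intervals of limma; filled marks have an adjusted p under 0.05 and the role is in brackets. STAT3 lies at 0.99, HNF4A at -0.87 and IL6R near 0 (-0.05); the value of IGF1 depends on the added 0.5 CPM, since its WT libraries held 0 and 1 reads.

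The 5 loci whose levels over the 6 groups were most like those of CRP were found by the distance between their log2 profiles, each taken about its own mean, among loci with a mean of at least 5 CPM in some group. They were EMC10 (distance 0.249), CADM3 (0.362), CADM3-AS1 (0.408), PAGE2B (0.714) and COL6A2 (0.977). The profiles include the added 0.5 CPM, which understates fold changes of loci at very low levels in WT. EMC10 averaged 42.8 CPM in KO DMSO and 0.0970 CPM in WT DMSO. In WT DMSO, COL6A2 averaged 0.0223 CPM and PAGE2B 0.713 CPM, where CRP averaged 18.9 CPM. The closeness of such loci to CRP thus depends in part on the added value. CADM3, a cell adhesion molecule, averaged 143, 136 and 164 CPM in KO PB, CITCO and DMSO, and 1.16, 1.70 and 1.73 CPM in WT PB, CITCO and DMSO. CADM3-AS1, its antisense neighbour, averaged 64.3 CPM in KO DMSO and 0.538 CPM in WT DMSO; reads of CADM3 and its antisense gene cannot be told apart without strand, which is not given. 

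CADM3 and its antisense gene lie near CRP on chromosome 1. Looking at neighbours was chosen after this was seen, and it is a description without a test. Of the 5 tested genes on each side of CRP in RefSeq order, 7 of 10 were higher in KO under DMSO and 2 lower, where 28.3% and 29.4% of all loci were, with a median log2 difference of 0.95. CADM3 differed by 6.21, CADM3-AS1 by 5.97, APCS by 1.60, OR10J6P by 1.06 and IFI16, an innate DNA sensor, by 1.05 on one side, and on the other DUSP23 by 0.85, TAGLN2 by 0.76, PIGM by -0.13, IGSF9 by -0.83 and LINC01133 by -1.52. The nearest tested genes, OR10J6P and DUSP23, had smaller values than CRP on this scale. OR10J6P was low, at 2.48 CPM in KO and 0.927 CPM in WT, as were IGSF9 (0.632 and 1.41 CPM) and LINC01133 (0.178 and 1.44 CPM). The added 0.5 CPM understates differences at such levels. Over the neighbours of the other 9 members the median was between -0.18 and 0.58, and the highest medians belonged to the fibrinogen chains, whose neighbours include one another (0.54 for FGA, 0.58 for FGB and 0.52 for FGG).

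**Figure D5:**
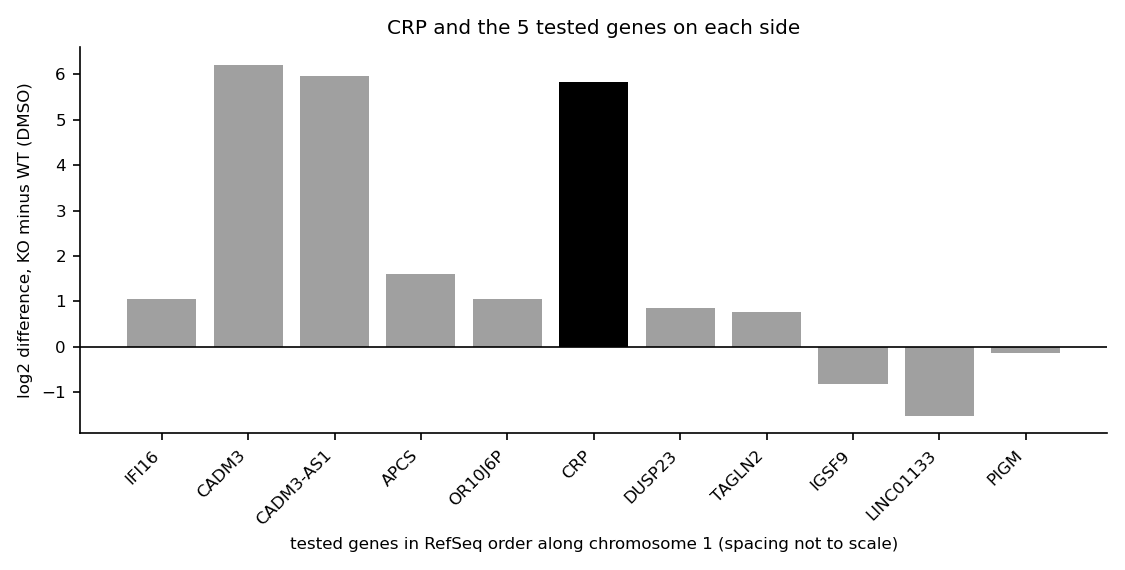
Log2 difference of KO from WT under DMSO for CRP (black) and the 5 tested genes on each side (grey), in RefSeq order along chromosome 1 with spacing not to scale. CRP (5.83), CADM3 (6.21) and CADM3-AS1 (5.97) stand apart from the other neighbours, which lie between -1.52 and 1.60.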

How the data were processed

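RNA was measured in 12 HepaRG libraries. The submitters' processing notes name edgeR 2.12, Cuffdiff 2.1.1, Cufflinks 2.1.1, TopHat2 2.0.10 and Bowtie 1.0.0, and the builds GRCh37 and GRCh38. The deposited signal values are CPM of a normalized library size, per the file headers and their totals. The deposited comparison tables hold the authors' log2 fold changes, p-values with FDR, and a likelihood-ratio score; the score was not used.

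From the CPM, 15792 of 15822 loci passed a filter of 1 CPM or more in 2 libraries or more. Differences were tested with limma 3.58.1 (R 4.3.3) on log2(CPM + 0.5) with a variance trend, all 12 libraries in 1 fit of 6 group means (6 residual degrees of freedom), and Benjamini-Hochberg adjustment over all loci with a threshold of 0.05, in 11 comparisons. The script was tested on simulated data. Values divided by the CPM of 1 read came out whole within 0.001 reads for 100% of values, so edgeR 4.0.16 and DESeq2 1.42.0 were run on the reads of the WT libraries as alternatives. Alternatives also changed the pseudocount, filter, scaling, variance prior, libraries and replicate block. Duplicates differed beyond sampling noise, and replicate numbers were not taken to pair samples.

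Members and lists were chosen with earlier results of these data known. Besides the members, up to 4 called genes per list with the largest KO to WT difference under DMSO are named, plus IL6R, IL6ST, STAT3, SOCS3, CEBPB, CEBPD and HNF4A, and the 5 loci most like CRP. An item of the signal carriers is not reported here. Sequences are from RefSeq; transcript lengths and shared windows are from GENCODE 29.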

Additional observations from a re-analysis of the deposited data

Results flagged for a closer look

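In 5 cases the response to a drug differed between the genotypes by a test of the difference itself (limma, KO minus WT, log2 scale). For PB these were CRP (0.495, adjusted p = 0.000236), which was higher with PB in 2 of 2 KO libraries and lower in 2 of 2 WT libraries, HP (0.263, adjusted p = 0.00433), FGB (0.228, adjusted p = 0.0169) and ORM1 (0.204, adjusted p = 0.0364). For CITCO it was FGB (0.249, adjusted p = 0.0141), whose values were 0.09 in KO and -0.16 in WT. Of these calls only that of CRP held whichever single library was left out. All 5 were lost with a constant prior variance in place of the trend. With 2 libraries a group, no library could be examined for standing apart from its group.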

How the results depend on the processing

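Between KO and WT, 9 of 10 members were called under each treatment, and the count stayed at 9 or 10 under every alternative run. Scaling to totals reversed SAA1 under DMSO and CITCO (0.21 in both, called higher). Drug responses were less stable. The limits are 2 libraries a group and a spread borrowed from all loci: with a constant prior variance in place of the trend, calls with PB against DMSO went to 1 in KO (4 in the text) and 1 in WT (5), with CITCO in WT to 0 (2), in the response differences to 0 for PB (4) and 0 for CITCO (1), and for PB against CITCO to 0 in KO (3) and 1 in WT (4). Fitting the compared libraries alone gave 1 with PB in WT, 1 with CITCO in WT, 2 for the PB response difference and 6 for PB against CITCO in KO. Total scaling gave 3 with PB in KO, 1 with CITCO in WT and 2 for PB against CITCO in WT, and a pseudocount of 2 gave 1 with CITCO in WT. On WT reads, edgeR gave 1 with CITCO and 2 for PB against CITCO, and DESeq2 gave 3 with PB, 0 with CITCO and 2 for PB against CITCO. Leaving out 1 library gave 2 to 3 calls with PB in KO, 3 to 4 with PB in WT, 0 to 2 with CITCO in WT, 1 to 5 and 0 to 2 for the PB and CITCO response differences, and 1 to 4 and 2 to 3 for PB against CITCO in WT and KO. The cause of these changes was not tested, beyond the fewer libraries in some fits.

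Replicate numbers showed no pairing over all groups: deviations of same-numbered libraries correlated at -0.078 to 0.288 between groups, over 0.1 in 4 of 15 pairs of groups. The highest were 0.288 for WT PB with WT DMSO, 0.226 for KO DMSO with WT DMSO and 0.18 for KO PB with KO DMSO. The source of these correlations was not tested. With the replicate block the calls among the members were 4 and 0 (PB and CITCO in KO), 5 and 2 (in WT) and 9 in each comparison of KO with WT, and 0 of 110 member results changed their call or direction.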
